A study of Mus musculus with 4 samples.

Results

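The genes described here make, break down or respond to the cyclic nucleotides cAMP and cGMP. They were the gene rows whose symbol begins with Adcy or Pde followed by a digit, or with Gucy1, Prkaca, Prkacb, Prkar, Prkg1, Prkg2, Rapgef3 or Rapgef4. That rule found 43 of 15409 gene rows: 8 adenylyl cyclases, 4 subunits of soluble guanylyl cyclase, 18 phosphodiesterases, 6 subunits of protein kinase A (PKA), 2 cGMP-dependent kinases, 2 cAMP-gated exchange factors and 3 genes that share only the letters of the symbol. Those 3 are Pde4dip, a scaffold protein that binds a phosphodiesterase, Pde6d, a carrier of lipid-modified proteins, and Pde12, an RNA-degrading enzyme of mitochondria. They were kept in every count because the symbols chose them, and 40 genes have a cyclic nucleotide role. The rule used no measured value.

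The libraries were RNA sequencing of brain septal tissue of 2 genotypes. TCRb-/- mice have no T cell receptor beta chain, and wild-type (WT) mice were their comparison. Restraint in a plastic cone had been applied to both genotypes, 30 min a day over 3 days, with tissue taken 1.5 h after the final session. Every group thus carried the same stress, and an unstressed group was not analysed here. Each genotype had 2 libraries, 1 from each of 2 experiments, which the labels give as the batch. Each library came from the pooled tissue of 4 to 5 mice, so a replicate is a pool and its number is its experiment. Strain, age and sex of the mice were not given in the sources used here.

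Adenylyl cyclases turn ATP into cAMP under the control of G proteins, calcium or calmodulin, and soluble guanylyl cyclase makes cGMP when nitric oxide binds it. cAMP frees the catalytic subunits of PKA from its regulatory subunits and opens the exchange factors that load the small GTPase Rap, while cGMP switches on its own kinases. Phosphodiesterases end both signals. In the forebrain, Adcy5, Pde10a, Pde1b and Pde7b are known for high expression in the spiny projection neurons of the striatum, a nucleus that lies beside the septum.

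Library totals ran from 19988137 to 26210790 reads, and levels are given as CPM, the reads of a gene scaled by that total. Trbc2, which encodes part of the T cell receptor beta chain, had 0 reads in both TCRb-/- libraries and 6.45 and 3.85 CPM in WT replicates 1 and 2. All 12 septum markers were listed, with a summed level between 456 and 529 CPM over the 4 libraries, and Sst, the one with the most reads, had between 168 and 204 CPM. Other marker lists, too, are named by the marker with the most reads. Markers of neighbouring regions differed more. The summed level of 19 striatum markers, led by Penk, was 5639 CPM in TCRb-/- replicate 1, 5068 in WT replicate 1, 1895 in TCRb-/- replicate 2 and 3351 in WT replicate 2, and TCRb-/- replicate 2 was the lowest library for 19 of 19. The list was chosen with earlier results of these data known, so that count is a description and not a test. That library stood apart on it, and for each called member that was lowest in it the difference between experiments is given with and without it. Leaving out 1 library leaves a single pool in its group, so a p from such a fit takes no spread from that group. It rests on the spread of the other group, moderated by the spread across all genes. Such a p can be small for that reason and is no separate support. Choroid plexus markers, led by Ttr, ran the other way, with summed levels of 2234 and 1363 CPM in experiment 1 and 7105 and 4324 in experiment 2 (TCRb-/- and WT in turn). In bulk tissue, fewer cells of a type and less RNA per cell cannot be told apart.

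Between genotypes, limma, a linear model fitted across all genes with p adjusted over them (threshold 0.05), called 0 of the 41 genes that had a mean of at least 1 CPM (0% of all genes). Gucy1b2 and Pde6b were below that level. Between experiments, which are the same 4 libraries grouped the other way, it called 17 of 41 lower in experiment 2 and 0 higher (14.7% and 8.95% of all genes), led by Pde10a, Adcy5 and Pde7b. The promoters of those 3 genes are shown because their genes differed most, and that of Prkar1a because it alone among the matched members holds the complete cAMP response element (CRE), the site bound by the PKA target CREB. The sequences are the 250 bases before an annotated start, 5′ to 3′ on the gene's strand, from RefSeq (GRCm38.p6), and capitals mark the CRE (TGACGTCA) and the GC box (GGGCGG or its reverse complement CCGCCC). Pde10a has 2 listed starts, Prkar1a 6, and Adcy5 and Pde7b 1 each, and 1 window per gene is printed.
Pde10a, chr17:8801495-8801744, plus strand: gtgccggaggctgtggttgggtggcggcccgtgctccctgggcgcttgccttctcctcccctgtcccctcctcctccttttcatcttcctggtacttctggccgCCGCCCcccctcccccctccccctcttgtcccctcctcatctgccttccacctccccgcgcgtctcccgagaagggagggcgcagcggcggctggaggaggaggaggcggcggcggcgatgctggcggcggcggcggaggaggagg
Adcy5, chr16:35154614-35154863, plus strand: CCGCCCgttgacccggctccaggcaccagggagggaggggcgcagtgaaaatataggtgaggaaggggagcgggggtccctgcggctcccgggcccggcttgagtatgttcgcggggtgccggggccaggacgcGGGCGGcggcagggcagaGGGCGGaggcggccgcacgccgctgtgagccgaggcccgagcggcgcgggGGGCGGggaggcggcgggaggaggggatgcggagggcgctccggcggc
Pde7b, chr10:20548329-20548578, minus strand: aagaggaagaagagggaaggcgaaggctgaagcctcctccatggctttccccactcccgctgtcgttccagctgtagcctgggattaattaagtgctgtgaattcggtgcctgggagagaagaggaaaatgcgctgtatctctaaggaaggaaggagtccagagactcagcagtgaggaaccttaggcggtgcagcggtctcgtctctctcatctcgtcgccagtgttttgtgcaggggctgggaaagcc
Prkar1a, chr11:109650699-109650948, plus strand: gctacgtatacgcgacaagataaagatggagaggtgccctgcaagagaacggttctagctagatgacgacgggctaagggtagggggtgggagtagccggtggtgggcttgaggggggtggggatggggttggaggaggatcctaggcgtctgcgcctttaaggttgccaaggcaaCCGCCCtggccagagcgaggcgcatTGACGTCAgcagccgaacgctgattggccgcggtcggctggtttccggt

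RefSeq promoters were matched for 36 of the 43 genes, with 76 windows of 250 bases in all. On either strand, the complete CRE was in 1 of those windows (1.316%), against 1.546% of all 32851 windows of that length. In the Prkar1a promoter its first base lay at -49 from the start. The shorter core TGACG, which is part of the complete site, was in 15 windows of 13 genes (19.737%, against 17.765% of all windows). The GC box was in 35 windows of 28 genes (46.053%, against 32.742%), among them Pde10a with 1 and Adcy5 with 4, and the printed Pde7b window held none. The GC content of the printed windows was 72.8% for Pde10a, 78.0% for Adcy5, 55.2% for Pde7b and 61.6% for Prkar1a. A match is a description of letters and not evidence of binding.

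**Figure D1:**
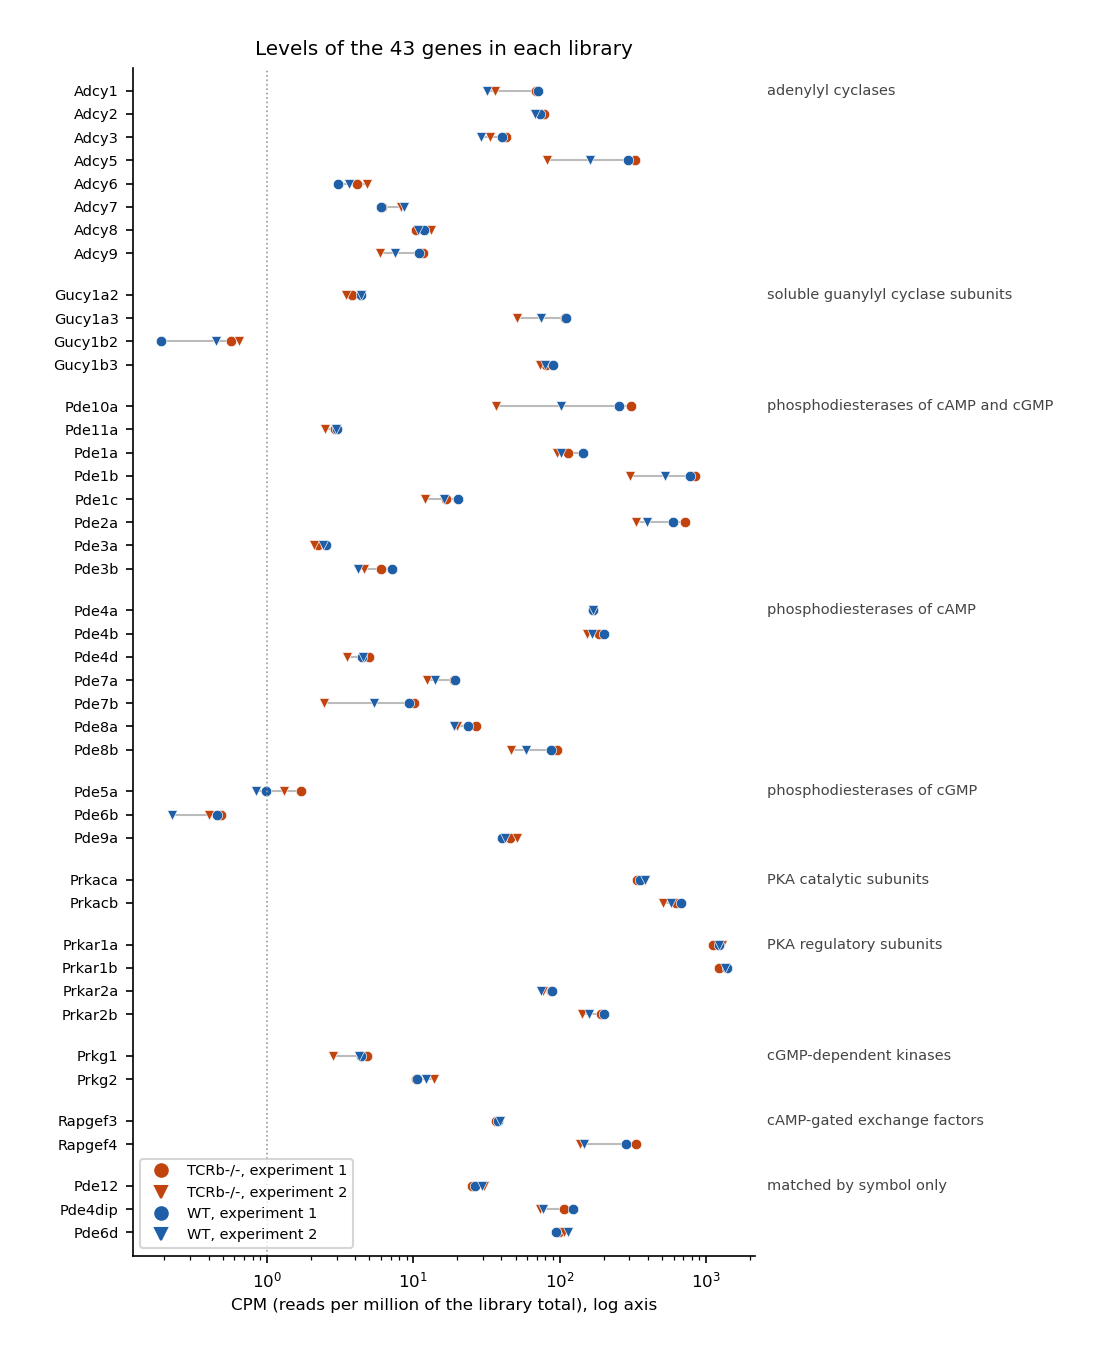
Level of each of the 43 genes in CPM on a log axis, grouped by role, with 1 point per library, coloured by genotype and shaped by experiment. The dotted line is 1 CPM, the grey lines join the lowest and highest library of a gene, and Pde10a spans the widest range among genes over 1 CPM, from 37.0 to 307 CPM.

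Among adenylyl cyclases, Adcy5, a form stimulated by the G protein of dopamine and adenosine receptors, was the most abundant per kilobase of transcript and one of 4 of 8 called lower in experiment 2 (14.7% of all genes). Adcy5 had 328 CPM in TCRb-/- and 292 in WT in experiment 1, and 82.4 and 160.3 CPM in experiment 2. Both libraries of experiment 2 lay below both of experiment 1, and TCRb-/- replicate 2 was the lowest. The difference, experiment 2 minus 1 on the log2(CPM + 1) scale used for all differences here, was -1.42 (SE 0.25, adjusted p 0.00976 in limma). Within TCRb-/- it was -1.98 and within WT -0.86, and it was -0.95 in the fit without TCRb-/- replicate 2. Adcy5 lies on chromosome 16 from 35154877 to 35305738 (GRCm38, plus strand).

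Adcy1, the calmodulin-stimulated cyclase known from cortical and hippocampal synapses, differed by -1.03 (SE 0.09, adjusted p 0.00253 in limma). It had 69.1 and 71.6 CPM in TCRb-/- and WT in experiment 1 and 36.0 and 31.9 CPM in experiment 2, so that the genotypes lay close together within each experiment and TCRb-/- replicate 2 was not the lowest library. Adcy9, a broadly expressed form, had 11.6 and 11 against 5.90 and 7.56 CPM (log2 difference -0.68, adjusted p 0.0189), and the call was lost without TCRb-/- replicate 2 (-0.53, adjusted p 0.0576), without TCRb-/- replicate 1 (adjusted p 0.0921) and without WT replicate 1 (adjusted p 0.0689). Adcy3, known from olfactory neurons and neuronal cilia, had 43 and 40.3 against 33.3 and 28.8 CPM (-0.41, adjusted p 0.0236), and was not called without TCRb-/- replicate 1, WT replicate 1 or WT replicate 2 (adjusted p 0.105, 0.0603 and 0.0724). Of the exon length of Adcy3, 22.1% overlaps Cenpo on the other strand, and without a stated strand setting reads of the pair cannot be told apart.

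Adcy2, another G protein-stimulated form, was the second most abundant cyclase and stayed between 67.8 and 77.9 CPM (log2 difference -0.12, adjusted p 0.259). Adcy8, which calmodulin stimulates as it does Adcy1, had between 10.5 and 13.3 CPM, and Adcy6, the closest relative of Adcy5, between 3.05 and 4.80 CPM. Neither was called. Adcy7 had 6.14 and 6.07 CPM in experiment 1 and 8.20 and 8.63 CPM in experiment 2, the highest difference of the 41 genes at 0.41, and missed the threshold (adjusted p 0.0667). It passed under quantile normalization and after a trend on transcript length was removed.

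Levels of different members were compared per kilobase of the longest annotated transcript. On that scale Adcy5 made up 55.6% and 53.7% of the summed cyclase level in TCRb-/- and WT in experiment 1, and 27.5% and 44.1% in experiment 2. The summed cyclase level was also lower in experiment 2, from 84.1 and 77.6 to 42.8 and 51.8 CPM per kilobase. Adcy2 made up 26.9% of the mean over the 4 libraries and was above Adcy5 in TCRb-/- replicate 2 only, at 39.5%. Adcy3 was next at 10.1% and Adcy1 at 6.64%, and the other 4 cyclases made up between 1.01% and 2.83% each.

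**Figure D2:**
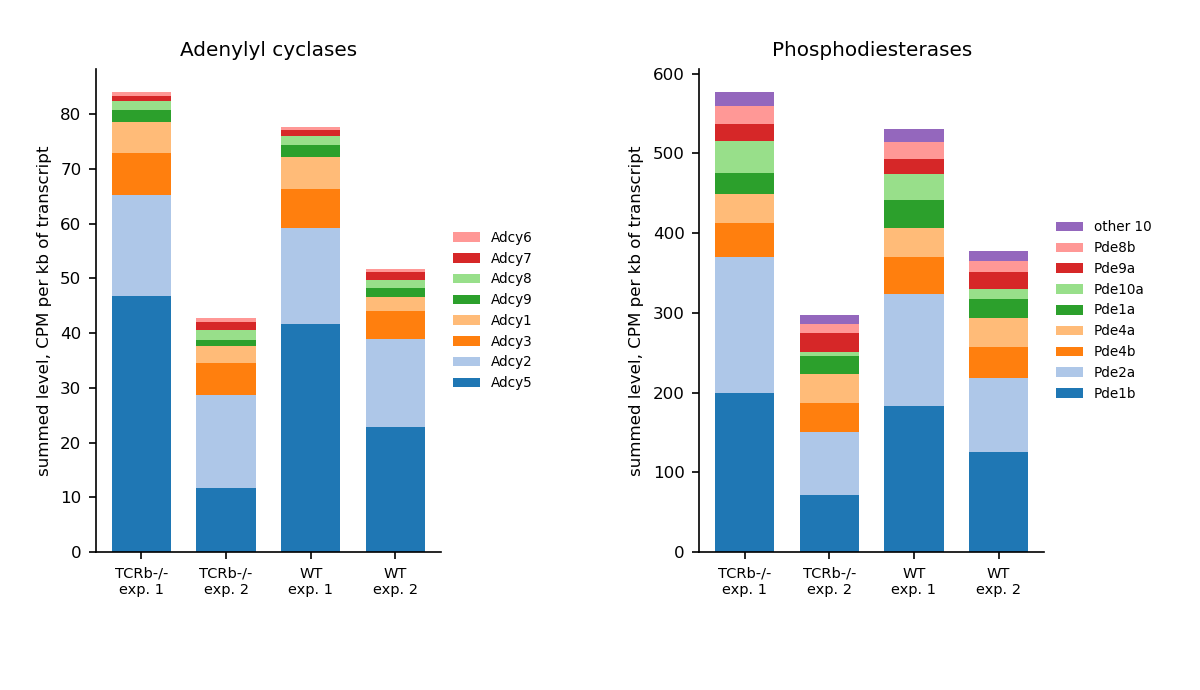
Summed level of the adenylyl cyclases (left) and phosphodiesterases (right) in each library, in CPM per kilobase of the longest annotated transcript, stacked by gene. The Adcy5 share is 27.5% in TCRb-/- replicate 2 and between 44.1% and 55.6% in the other libraries, and Pde1b and Pde2a are the tallest blocks of the phosphodiesterases.

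Soluble guanylyl cyclase is a dimer of an alpha and a beta subunit, and Gucy1a3 and Gucy1b3 (now named Gucy1a1 and Gucy1b1 in the annotation) are the main pair in brain. Gucy1a3 was called lower in experiment 2, with 108 and 111 CPM in experiment 1 and 51.4 and 74.9 in experiment 2 for TCRb-/- and WT (log2 difference -0.81, SE 0.15, adjusted p 0.0113 in limma, and -0.54 without TCRb-/- replicate 2). Its partner Gucy1b3 had 81.3 and 89.5 against 73.4 and 78.9 CPM (-0.16, adjusted p 0.168). For both genes the libraries of experiment 2 lay below those of experiment 1, Gucy1b3 was not called, and the difference between the subunits was not tested. Per kilobase, Gucy1b3 was above Gucy1a3 in every library. Gucy1a2, the second alpha subunit, had between 3.45 and 4.43 CPM. Gucy1b2 had 14, 5, 13 and 10 reads in TCRb-/- replicate 1, WT replicate 1, TCRb-/- replicate 2 and WT replicate 2, and the exact 95% intervals ran from 0.311 to 0.955 CPM for the first and from 0.0619 to 0.445 for the second. At that depth the libraries cannot be ranked.

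Phosphodiesterases that split both cAMP and cGMP held the largest difference of the 41 tested genes. Pde10a, the enzyme of striatal projection neurons, had 307 and 256 CPM in TCRb-/- and WT in experiment 1 and 37.0 and 102 CPM in experiment 2. The genotypes were close together in experiment 1 and far apart in experiment 2. The log2 difference between experiments was -2.17 (SE 0.38, adjusted p 0.00929 in limma), at -3.02 within TCRb-/- and -1.31 within WT. Without TCRb-/- replicate 2 it was -1.44. Pde10a lies on chromosome 17 from 8525372 to 8986648 (plus strand), and the printed window precedes a start inside that span. The printed windows of Pde7b (gene span 20398004 to 20725078 on chromosome 10, minus strand) and Prkar1a (109649405 to 109669656 on chromosome 11, plus strand) likewise lie inside the gene.

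Pde1b, a calmodulin-dependent enzyme and the phosphodiesterase with the highest level per kilobase, had 838 and 774 CPM in experiment 1 and 304 and 528 in experiment 2 (log2 difference -1.01, SE 0.21, adjusted p 0.0160 in limma). Without TCRb-/- replicate 2 it was -0.61, and the call was lost without TCRb-/- replicate 1 and without WT replicate 1. The same order of libraries was seen as for Adcy5 and Pde10a. Pde2a, which cGMP stimulates to split cAMP, had 719.5 and 593 CPM against 332 and 393 CPM (-0.85, SE 0.11, adjusted p 0.00546, and -0.73 without TCRb-/- replicate 2). Of its exon length, 64.3% overlaps the predicted gene Gm45837 on the same strand, so its reads may have been split or dropped in counting and its level is uncertain. Pde1a, a second calmodulin-dependent form, had 115 and 145 CPM against 96.3 and 102 (-0.38, adjusted p 0.0397), and was not called without WT replicate 1 (-0.21, adjusted p 0.127) or without TCRb-/- replicate 2 (-0.34, adjusted p 0.0701). The remaining form, Pde1c, had 16.7 and 20.1 against 12.1 and 16.2 CPM and was not called (-0.37, adjusted p 0.133). The other dual enzymes were low: Pde3b had between 4.20 and 7.21 CPM, Pde11a between 2.50 and 3.01 and Pde3a between 2.1 and 2.52.

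Of the 7 phosphodiesterases that split cAMP alone, 5 were called lower in experiment 2 (14.7% of all genes), and 3 of those calls did not hold without TCRb-/- replicate 2. Pde7b had 10.1 and 9.39 CPM in experiment 1 and 2.45 and 5.41 in experiment 2 (log2 difference -1.19, SE 0.27, adjusted p 0.0192 in limma), again with TCRb-/- replicate 2 lowest. Without that library it was -0.75, and the call was lost without TCRb-/- replicate 1 and without WT replicate 1. Pde8b had 95.8 and 86.6 against 46.2 and 58.9 CPM (-0.79, SE 0.12, adjusted p 0.00663, and -0.62 without TCRb-/- replicate 2). The remaining calls were smaller. Pde7a had 19.0 and 19.3 against 12.4 and 14.0 CPM (-0.51, adjusted p 0.0206), and Pde8a had 27.0 and 23.8 against 20 and 19.1 CPM (-0.36, adjusted p 0.0464). Pde4b, the target of rolipram together with its family, had 186 and 199 against 154 and 166 CPM (-0.27, adjusted p 0.0319). Without TCRb-/- replicate 2, Pde7a, Pde8a and Pde4b were not called (-0.42, -0.39 and -0.21, adjusted p 0.0740, 0.0794 and 0.159). They were also not called without TCRb-/- replicate 1 or without WT replicate 1, nor was Pde8a without WT replicate 2.

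Pde4a, of the same rolipram-sensitive family as Pde4b, was the steadiest gene of the set, with 168.7 CPM in TCRb-/- replicate 1, 169.5 in WT replicate 1, 170.0 in TCRb-/- replicate 2 and 169.5 in WT replicate 2. Its log2 difference was 0.01 between experiments and 0.00 between genotypes, and its 95% interval by genotype, from -0.29 to 0.29, was the narrowest of the 41 in the fit without the experiment as a block. Pde4d, another family member, had between 3.55 and 5.00 CPM. Per kilobase, Pde1b made up 32.5% of the mean phosphodiesterase level and Pde2a 27.1%, followed by Pde4b (9.20%), Pde4a (8.17%), Pde1a (6.03%), Pde10a (5.07%), Pde9a (4.82%) and Pde8b (3.81%). The order of Pde4b and Pde4a turned when all exons were used as the length, where Pde4a had 22.1 and Pde4b 16.7 CPM per kilobase. Pde1a, at 19.0, was then also above Pde4b. Those shares are of the mean over libraries, and the order differed within them. Pde10a had 39.5 CPM per kilobase in TCRb-/- replicate 1, above Pde4a at 36.3, and 4.77 in TCRb-/- replicate 2, below Pde8a at 5.25. Pde1b ranked first in 3 libraries, and in TCRb-/- replicate 2 it had 72.1 CPM per kilobase against 78.7 for Pde2a.

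The phosphodiesterases of cGMP were not called between experiments. Pde9a, the high-affinity cGMP enzyme of brain, had 45.6 and 40.3 CPM in experiment 1 and 51.4 and 42.2 in experiment 2 (log2 difference 0.12, adjusted p 0.472), and made up 98.8% of the cGMP-specific level per kilobase. Pde5a, the target of sildenafil, had 1.71 and 0.992 against 1.3 and 0.850 CPM, or between 19 and 42 reads. Pde6b, the enzyme of rod photoreceptors, had between 5 and 12 reads per library and was not tested.

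PKA, the main cAMP target, was the most abundant part of the set per kilobase, and 1 of its 6 subunits was called lower, against 14.7% of all genes. The regulatory subunits Prkar1b and Prkar1a, which bind cAMP and hold the enzyme silent, had between 1235 and 1381 CPM and between 1124 and 1283 CPM, and were not called (log2 differences 0.05 and 0.10, adjusted p 0.672 and 0.368 in limma). Prkar2b, the type II form that anchoring proteins tie to membranes in neurons, was called lower in experiment 2, with 191 and 199 against 141 and 159.6 CPM (-0.37, SE 0.08, adjusted p 0.0148), though not without TCRb-/- replicate 2 (-0.29, adjusted p 0.0580) or without WT replicate 1 (adjusted p 0.0567). Prkar2a, its relative, had 87.2 and 88.1 against 76.4 and 74.3 CPM and missed the threshold (-0.21, adjusted p 0.0529). Per kilobase, Prkar1b made up 55.0% and Prkar1a 37.7% of the regulatory level, and over the libraries those shares ran from 54.3% to 55.3% and from 36.7% to 38.8%.

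The catalytic subunits Prkaca and Prkacb, which phosphorylate PKA substrates, were not called. Prkaca had 337 and 355 CPM in experiment 1 and 379.9 and 383 in experiment 2 (log2 difference 0.14, adjusted p 0.140), and Prkacb had 620.2 and 670.3 against 510.3 and 576 CPM (-0.25, adjusted p 0.0593). Prkacb passed with genotype as a block (adjusted p 0.0318). Prkaca made up between 50.3% and 58.7% of the catalytic level per kilobase. Its share of the mean over libraries was 53.9%, and 68.3% when all exons were used as the length. Of the cGMP-dependent kinases, Prkg2, the membrane-bound form, had between 10.5 and 13.9 CPM and Prkg1, the soluble form of smooth muscle and some neurons, between 2.85 and 4.80 CPM, and neither was called.

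The cAMP-gated exchange factors, also named Epac, differed from each other. Rapgef4, the form of neurons, had 332 and 286 CPM in experiment 1 and 138 and 146 in experiment 2 (log2 difference -1.11, SE 0.08, adjusted p 0.00191 in limma, and -1.08 without TCRb-/- replicate 2), the smallest adjusted p of the 41 genes. The genotypes lay close together in experiment 2, and the difference was -1.26 within TCRb-/- and -0.97 within WT. Rapgef3, the more widely expressed form, stayed between 36.8 and 39.1 CPM (0.06, adjusted p 0.624). Rapgef4 therefore held 90.1% and 88.4% of the exchange factor level per kilobase in experiment 1 and 78.2% and 78.9% in experiment 2. Among the genes matched by symbol only, Pde4dip was called lower, at 107 and 123 against 73.1 and 76.8 CPM (-0.61, adjusted p 0.00582 in limma, and -0.58 without TCRb-/- replicate 2). Pde6d had between 95.2 and 113 CPM and Pde12 between 25.3 and 30.6 CPM, and neither was called.

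Across all genes, limma called 23.7% between experiments, 14.7% lower and 8.95% higher in experiment 2, so the 17 of 41 lower (41.5%) stood above the background of lower calls, and the 0 higher below that of higher calls. The median difference was -0.25 for the 41 genes and -0.03 for all 13912. Of all calls 37.8% were higher, a share that was 50.6% under quantile normalization, where 16 of the 41 were lower (11.5% of all genes) and 1, Adcy7, was higher (11.7%). Both libraries of experiment 2 lay below both of experiment 1 for 24 of the 41 (background 37.2%) and above for 7 (background 30.1%). Of the 38 genes with a cyclic nucleotide role that were tested, 16 were called. The numbers rest on few libraries: 8 to 17 members were called when 1 library was left out. There were 11 without TCRb-/- replicate 2 (9.46% of all genes lower) and 8 without WT replicate 1 (7.07%), and 10 without TCRb-/- replicate 1 (6.29%). Adcy1, Adcy5, Gucy1a3, Pde10a, Pde2a, Pde4dip, Pde8b and Rapgef4 were called in each of the 4 fits that left out 1 library, and the other 9 lost the call in at least 1. A call kept in such a fit is no separate support, since its group then has a single pool. With genotype as a block, 18 members were called (15.4% of all genes lower). Moderation without a mean-variance trend called 4 members (Adcy1, Pde2a, Pde4dip and Rapgef4) and 4.52% of all genes, and with genotype also as a block it called 0 members and 0% of all genes.

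**Figure D3:**
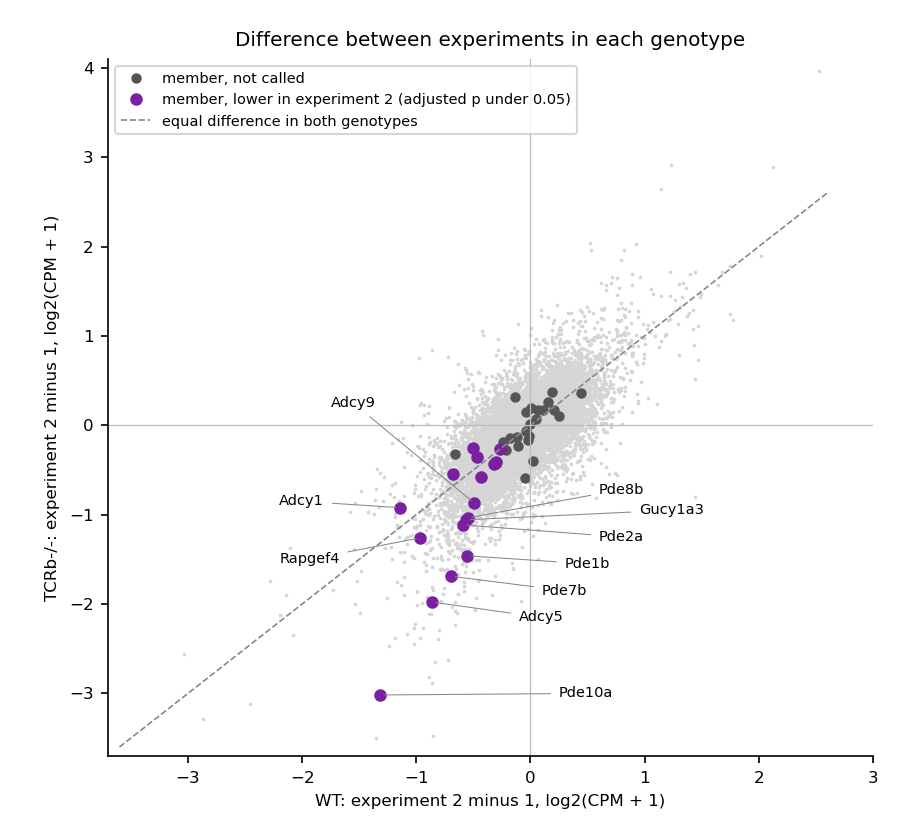
Difference between experiments (2 minus 1, log2(CPM + 1)) in WT on the x axis and in TCRb-/- on the y axis, with the 41 tested members as large points and all other tested genes as small grey points. The 17 called members all lie in the lower left, and Pde10a (-1.31 in WT, -3.02 in TCRb-/-) and Adcy5 lie far below the dashed line of equal difference, whereas Adcy1 lies above it.

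The called genes did not have 1 profile. For 13 of the 17 the TCRb-/- libraries differed more between experiments than the WT libraries, and for 12 of these, all but Pde8a, TCRb-/- replicate 2 was the lowest. The same shares among all genes called lower were not computed, so these counts describe the members and are no trait of them. For Adcy1, Adcy3, Pde1a and Pde4dip the WT libraries differed more. Whether a member's difference itself differed between genotypes was not tested. TCRb-/- replicate 2 was the lowest library for 22 of the 41 genes, against 31.7% of all genes. Beside these values, 19 of 19 striatum markers were called lower in experiment 2, with a median of -1.19, at -1.68 in TCRb-/- and -0.64 in WT. Cortex and hippocampus markers, led by Mef2c, were lower for 9 of 13, with a median of -0.96 in TCRb-/- and -1.01 in WT. Choroid plexus markers were higher for 15 of 17 (median 1.29) and thalamus markers, led by Calb2, for 7 of 12 (0.74), while 3 of 12 septum markers were higher and 1 lower (0.17). The marker lists were chosen with earlier results of these data known, so these counts describe the libraries and are not a test. The part of these marker differences in the members' differences was not tested.

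Transcript length also moved with the experiment. Across 13828 genes with an annotated length, longer genes were lower in experiment 2 (Spearman rho -0.448, a description across genes of the same libraries), and over the 41 members rho was -0.276. The median longest transcript was 4.65 kb for members and 3.43 kb for all genes. Among members of 4 to 6 kb, 10 of 19 were called lower, against 24.2% of all genes in that range, and above 6 kb 5 of 13 against 30.1%. From 2 to 4 kb it was 2 of 8, against 9.56%. The called members had a median length of 4.71 kb and the others 4.5 kb. After a lowess trend on length was removed from each library, an alternative chosen after seeing the data, 11 members were called lower and Adcy7 and Pde12 higher, against 7.79% and 7.15% of all genes. Adcy3, Adcy9, Pde1a, Pde4b, Pde7a and Pde8a were no longer called.

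**Figure D4:**
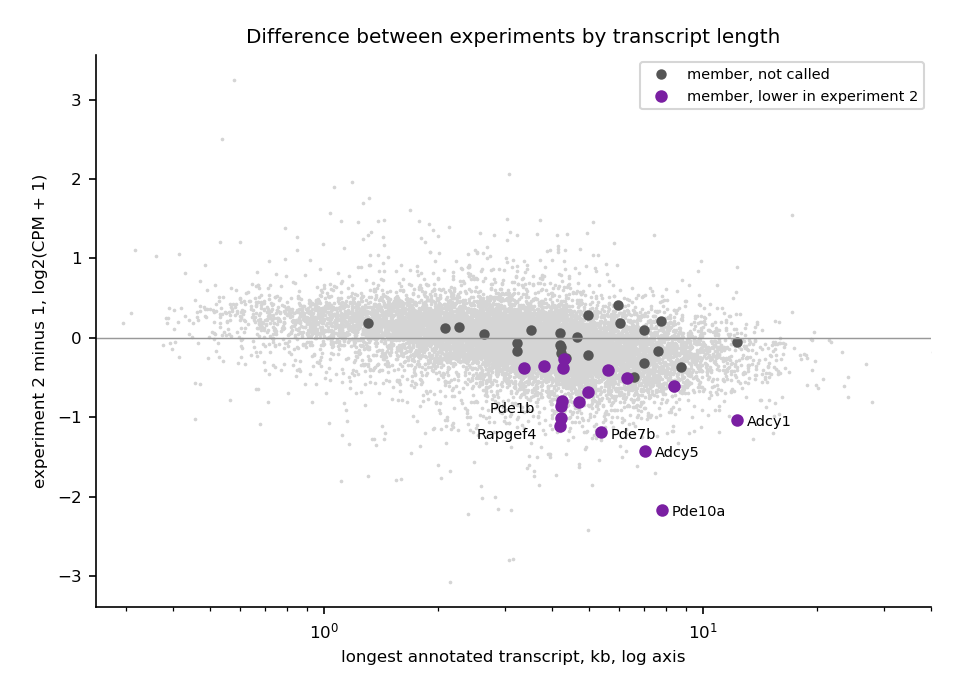
Difference between experiments (2 minus 1, log2(CPM + 1)) against the longest annotated transcript in kilobases (log axis) for the 41 tested members (large points, purple where called) and all other tested genes (grey). The grey cloud slopes down with length. Pde10a, Adcy5 and Pde7b lie below the medians of all genes of 4 to 6 kb (-0.17) and above 6 kb (-0.23), and the lowest of all genes tested was at -3.08.

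By genotype, the comparison the series was built for, the members did not stand apart. At the adjusted threshold limma called 0 of 41 members and 0 of 13912 genes (0%), and at an unadjusted p under 0.05 it called 0 members and 0.309% of all genes. Every one of the 41 intervals held 0 in this fit. Their half-widths had a median of 0.52 and ran from 0.29 for Pde4a to 2.54 for Pde10a, and 32 of the intervals lay within 1 log2 unit of 0 on both sides. With the experiment as a block, 0 members passed the adjusted threshold (0.0144% of all genes), the median half-width was 0.26, 37 of the 41 intervals held 0, and 40 intervals lay within 1 log2 unit. The median difference, TCRb-/- minus WT, was -0.07 for members and 0.00 for all genes. An exact permutation test of 1 gene, with 2 libraries on each side, cannot go below p = 0.333 (two-sided).

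Libraries of the genotypes did not overlap for 6 of the 41 (14.6%, against 17.8% of all genes). Pde9a, Adcy6 and Pde5a were higher in both TCRb-/- libraries than in both WT libraries. Pde9a had 48.5 ± 4.12 CPM in TCRb-/-, against 41.2 ± 1.39 CPM for WT (SD, n = 2 each). Its log2 difference was 0.23 (95% interval -0.12 to 0.57 without the block and 0.03 to 0.42 with it). The adjusted p was 1.00 in limma, and 0.848 with the block. Adcy6 had 4.48 ± 0.463 and 3.36 ± 0.435 CPM (0.33, interval -0.18 to 0.84 without the block). Pde5a had 1.50 ± 0.288 and 0.921 ± 0.101 CPM (0.38, interval -0.17 to 0.93 without the block). Below WT in both libraries were Gucy1a2 (3.64 ± 0.263 and 4.40 ± 0.0301 CPM, difference -0.22), Pde3a (-0.13) and Pde11a (-0.10). These differences did not pass the threshold with or without the block. Gucy1b2, which was not tested, had 0.569 and 0.650 CPM in TCRb-/- and 0.191 and 0.447 in WT.

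With the block, 4 of 41 members (9.76%, against 5.64% of all genes) had an unadjusted p under 0.05 in limma. Pde1c was lower in TCRb-/- by 0.26 in experiment 1 and 0.40 in experiment 2 (difference -0.33, unadjusted p 0.0221, adjusted p 0.848), Gucy1a3 by 0.04 and 0.53 (-0.29, p 0.0385) and Pde1a by 0.33 and 0.08 (-0.21, p 0.0380). Pde9a was higher by 0.17 and 0.28 (p 0.0289). Prkacb came next, at 565 ± 77.7 CPM in TCRb-/- and 623 ± 66.7 in WT (-0.14, p 0.0662). When 1 library was left out, in the fit without the block, the difference ran from -0.55 to -0.11 for Pde1c, from 0.14 to 0.31 for Pde9a and from -0.28 to -0.0029 for Prkacb. The direction of the genotype difference was the same in both experiments for 20 of 41 members (48.8%), 14 lower and 6 higher, against 51.6% of all genes.

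**Figure D5:**
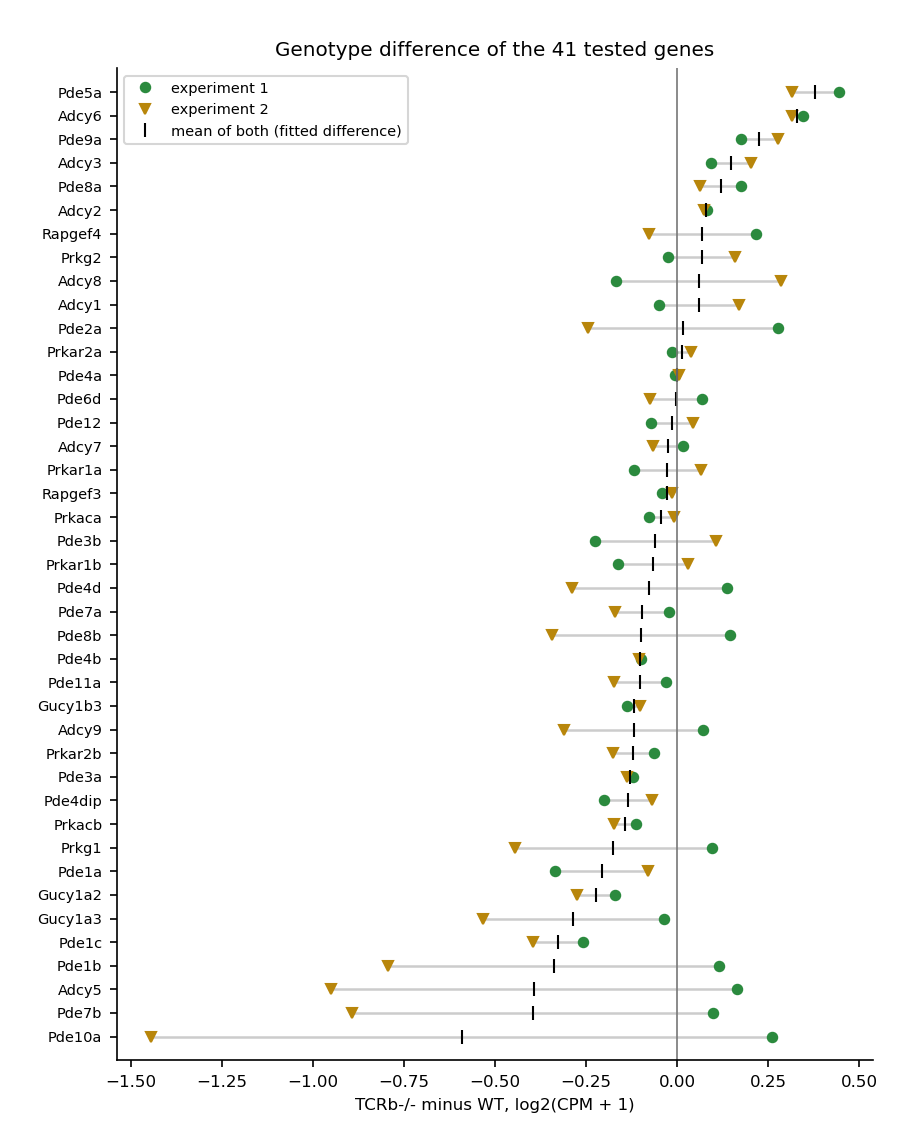
Genotype difference (TCRb-/- minus WT, log2(CPM + 1)) of the 41 tested genes within experiment 1 (circles) and experiment 2 (triangles), with the mean of both as a tick. The circles stay between -0.33 and 0.44, whereas the triangles of Pde10a, Adcy5, Pde7b and Pde1b lie between -1.44 and -0.79 on the other side of 0 from their circles.

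Pde10a, Adcy5 and Pde1b had wide genotype intervals, and TCRb-/- replicate 2 was their lowest library. Pde10a had 172 ± 191 CPM in TCRb-/-, against 179 ± 109 CPM for WT (SD, n = 2 each). Its log2 difference was -0.59, with an interval from -3.14 to 1.95 without the block. With the experiment as a block, the intervals ran from -1.32 to 0.13 for Pde10a, -0.88 to 0.09 for Adcy5 and -0.75 to 0.07 for Pde1b. Within experiments the Pde10a difference was 0.26 and -1.44. Adcy5 had 205 ± 173 and 226 ± 93.4 CPM, with within-experiment differences of 0.16 and -0.95, and Pde1b 571 ± 378 and 651 ± 174 CPM, with 0.12 and -0.79. Pde10a, Adcy5 and Pde1b were called lower in TCRb-/- when TCRb-/- replicate 1 was left out (adjusted p 0.00244, 0.0169 and 0.0431 in limma, with 0.338% of all genes called), and their differences were above 0 when TCRb-/- replicate 2 was left out (0.92, 0.60 and 0.39). The striatum markers had a median genotype difference of 0.18 in experiment 1 and -1.07 in experiment 2, and their part in these values was not tested. These 3 genes were chosen for this description after their values were seen.

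Other genes of the pathway were read from 5 lists of 58 genes, of which 54 were listed and 49 tested. Between experiments 2 were called higher and 11 lower (median -0.15), against 8.95% and 14.7% of all genes, or 23.7% in either direction. By genotype 0 were called with or without the block. The lower calls were led by Ppp1r1b and Arpp21, PKA substrates of striatal neurons. Ppp1r1b, the phosphatase inhibitor DARPP-32, had 1574 and 1409 CPM in TCRb-/- and WT in experiment 1 and 299.8 and 804 in experiment 2 (log2 difference -1.60, adjusted p 0.0206 in limma). Arpp21 had 1490.3 and 1438 against 305 and 825 CPM (-1.54, adjusted p 0.0233), and Arpp19 677 and 687 against 283 and 461 CPM (-0.92, adjusted p 0.0149). Akap5, which anchors PKA at synapses, had 98.0 and 99.0 against 37.9 and 62.9 CPM (-1.0, adjusted p 0.0129).

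Of the 7 G protein alpha subunits that act on cyclases, 1 was higher and 2 lower, against 8.95% and 14.7% of all genes, and the counts of the other lists here are read against the same shares. Gnal, the stimulatory subunit of striatal and olfactory neurons, was lower at 429 and 378 against 217 and 266 CPM (-0.74, adjusted p 0.00635 in limma), and Gnas, the general stimulatory subunit, was higher at 38.2 and 39.3 against 66.5 and 59.6 CPM (0.69, adjusted p 0.00503). Gnas is an imprinted locus with overlapping and antisense transcripts, so its counts are uncertain. The inhibitory subunit Gnai1 stayed between 494 and 503 CPM (-0.02). Of 14 PKA inhibitors and anchoring proteins tested, 1 was higher and 4 lower, and Pkia, a PKA inhibitor, had 369 and 415 against 307 and 349.7 CPM (-0.26, adjusted p 0.0684). Of 8 CREB family genes and coactivators 1 was lower, and Creb1, with 27.1 and 29.4 against 18.0 and 24.1 CPM, was not called (-0.42, adjusted p 0.0657). Of 6 genes of the nitric oxide and natriuretic peptide arm, 0 were called in either comparison, and of 14 other effectors and substrates 4 were lower.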

How the data were processed

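Per the submitters' processing notes, HISAT2 2.1.0, SAMtools 1.3, HTSeq 0.9.1, R 4.0.5, limma 3.46.0 and build mm10 were used, with no role given for each, and the annotation and strand setting were not given in the sources used here. As the labels' protocols state, RNA came from detergent-treated, cleared lysate and libraries from the SMARTer ultra-low-input kit on a HiSeq2500. The deposited values are log2 values: each was a log2 CPM with 0.5 added to the reads and 1 to the total, and whole reads came back for 100% of values within 0.001.

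Reads were converted to CPM and to log2(CPM + 1), a scale on which changes of low genes are understated. The filter was a mean of 1 CPM or more, which kept 13912 genes (the 17 spike-in rows were left out). Genotype, and separately experiment, was the only term in limma 3.58.1 (R 4.3.3) with empirical Bayes moderation and a mean-variance trend, two-sided, adjusted by Benjamini-Hochberg over all genes, with a threshold of 0.05. The procedure was run on simulated independent counts with set changes in some genes and no other difference between libraries. That checks the code, and not how the test behaves on these libraries. No negative binomial test was run on the recovered reads, and voom weights on them were the alternative. The labels give the experiment as the batch, so same-numbered libraries are paired. Deviations of same-numbered libraries from their genotype mean correlated at 0.719 across genes. Replicates of a genotype differed beyond counting error (chi-square per degree of freedom 52.1 and 30.3). Nothing says that the pools came from separate litters or cages, so p-values measure the spread between these pools. In the fit between experiments the pools of each experiment are of different genotypes, so that spread holds any genotype difference as well.

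Depth allowed 1 read to be worth between 0.0382 and 0.0500 CPM, and 0 reads to mean up to 3 reads (0.114 to 0.150 CPM). Intervals of counts are exact Clopper-Pearson intervals at 95% and cover counting error only, since amplified reads are not independent molecules. Lengths and positions came from GENCODE M21 (GRCm38), in which all 43 members were found, 2 by a newer symbol, and the longest transcript was chosen as the length after values were seen. The members and lists were chosen with earlier results of these data known. The rule for names was every member, with test values for those called in either comparison and for the 5 with the smallest unadjusted p by genotype in each fit, the 4 other pathway genes that differed most, Gnas, Gnal, Gnai1, Creb1, Pkia and Ppp1r1b, the most abundant gene of a marker list, and Trbc2. Test values printed for other members were chosen after their values were seen. Astrocyte, oligodendrocyte, microglia, endothelial and T cell markers are summed in the closing section. Alternatives tried were other pseudocounts (0.1 and 5 CPM), a filter of 10 CPM or none, median-of-ratios and quantile scaling, no trend, voom weights, the replicate block, leaving out each library and removing a length trend. Other steps ran in Python 3.11.15 (pandas 2.3.3, numpy 2.4.6, matplotlib 3.10.9, scipy 1.17.1).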

Additional observations from a re-analysis of the deposited data

Results flagged for a closer look

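The genotype difference had opposite signs in the 2 experiments, by at least 0.1 on the log2(CPM + 1) scale in each, for 8 members, a minimum chosen after values were seen. The share of all genes that meet this rule was not computed, so the count is not a result about the members. Without a minimum, the sign was the same in both experiments for 48.8% of members and 51.6% of all genes. The difference in experiment 2 minus that in experiment 1 was -1.704 for Pde10a, -1.114 for Adcy5, -0.9089 for Pde1b, -0.5216 for Pde2a, -0.4868 for Pde8b and -0.4248 for Pde4d, all higher in TCRb-/- in experiment 1 and lower in experiment 2. It was 0.4538 for Adcy8 and 0.3326 for Pde3b, which went from lower to higher. Pde7b had 0.10 and -0.89 and fell just short of that minimum in experiment 1. Each experiment has 1 library per genotype, so these differences between experiments were not tested.

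The 17 spike-in RNA rows, synthetic transcripts that no comparison uses, had reads in every library. Their summed level was 193.7 CPM in TCRb-/- replicate 1, 159.8 in TCRb-/- replicate 2, 244.1 in WT replicate 1 and 174.8 in WT replicate 2, lower in both libraries of experiment 2.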

How the results depend on the processing

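With all libraries, the direction stayed the same in 331 of 331 values of members' differences under an alternative, and 290 stayed on the same side of the threshold. All 129 by genotype did, but none of these was near the threshold, so this says little. The other 41 were differences between experiments that lost their call. Moderation without a trend called 629 genes, 4 members and 1 other pathway gene between experiments, and with genotype as a block and no trend each of these counts was 0. Removing the length trend gave 2066 genes and 13 members. The replicate block (paired by experiment) gave 2 genes by genotype, with or without voom weights, and 0 members. Between experiments, where the block is genotype, the fit called 18 members, Prkacb added, and 18 other pathway genes against 13. The block changed no other member's call, and the cause of the other changes was not tested.

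Leaving out 1 library leaves a single pool in its group, assumed to vary like the other group. It gave 0 to 47 genes, 0 to 3 members and 0 to 2 other pathway genes by genotype, each highest without TCRb-/- replicate 1. Between experiments it gave 1406 to 3390 genes, 8 to 17 members and 5 to 18 other pathway genes, the last 6 without TCRb-/- replicate 1 and 5 without WT replicate 1. By genotype, values changed sign for Pde10a (-2.10 to 0.92; 0.065 without WT replicate 1), Adcy5 (-1.38 to 0.60; 0.038 without WT replicate 1), Pde1b (-1.07 to 0.39), Gucy1a3 (-0.81 to 0.24) and Pde1a (-0.46 to 0.046). Depth limits Gucy1b2, Pde6b and Pde5a most.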

Other observations

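Other cell types were read from marker lists of 8 genes each for astrocytes, oligodendrocytes, microglia and endothelial cells. Summed levels ran from 1067 to 1212 CPM for astrocyte markers, led by Slc1a3, and from 9026 to 10709 CPM for oligodendrocyte markers, led by Mbp. They ran from 189 to 202 CPM for the microglia markers and from 13.5 to 19.1 CPM for the endothelial markers. Of these lists, 1 astrocyte, 1 oligodendrocyte and 1 microglia gene were called lower in experiment 2, and 0 by genotype. Of 9 T cell markers 4 were listed, with summed levels of 91.4 and 83.1 CPM in experiment 1 and 14.7 and 50.5 in experiment 2 (TCRb-/- and WT in turn). In all libraries but TCRb-/- replicate 2 most of that was Cd4, at 85.0, 68.5, 6.70 and 37.5 CPM in the same order. The sum was highest in TCRb-/- replicate 1, although Trbc2 had 0 reads there, so it is no measure of T cells with that receptor chain. Between experiments 1 T cell marker was called lower. By genotype 0 were called without the block, and 1 was lower with it.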
